A study of Mus musculus with 10 samples.

Results

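The glutathione, thioredoxin and antioxidant genes described here encode the enzymes that make, use and recycle glutathione, the peroxiredoxins, the thioredoxin system, catalase, the mitochondrial and extracellular superoxide dismutases, the haem oxygenases and quinone reductases, and the regulators NRF2 and KEAP1. A gene was a member when its symbol belonged to one of these families and its base mean was at least 10. The base mean is the authors' mean of the normalised read counts over all 10 libraries. Of 25232 genes listed, 61 matched by symbol and 50 of these reached the minimum. The mouse *Sod1* gene was not a member, and its level is given for reference.

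The RNA came from the spinal cord of female mice at 90 days of age (P90), of which 5 were WT and 5 were *SOD1 G93A*, all labelled as C57BL/6 and with no treatment named. The study's methods add that the lumbar region was dissected and that WT mice were littermates. In the *SOD1 G93A* line, mutant human *SOD1* is present in many inserted copies beside the mouse gene, so that the model joins a mutation linked to ALS with a raised gene dose. The base mean pools both genotypes, so no difference between WT and *SOD1 G93A* mice, and no spread between mice, can be read from the levels below.

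Low base means take the values of single reads, and from these the size factors of the 10 libraries were recovered, ranging from 0.84 to 1.152. Multiplied by the summed base means they give an estimate of 18615000 to 25517000 reads on genes per library, which is approximate because a size factor is not a library total. Every error given here is the standard error from counting reads alone. It ranged from 0.374% of the base mean for *Prdx6* to 5.28% for *Gstm2*. Levels were compared between genes as the base mean per kb of merged exons.

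Marker genes were read beside the tissue label. Of the 12 marker lists counted here, 11 had every gene at a base mean of at least 10. These were neurons, motor neurons, astrocytes, oligodendrocytes, microglia, endothelium, ependyma, meningeal fibroblasts, skeletal muscle, liver and lumbar position. Of all 25232 genes listed, 15918 also reached 10. Muscle and liver are among the 11 lists, so reaching 10 does not tell tissues apart. *Mbp*, a myelin protein gene of oligodendrocytes, had the highest base mean of all genes, and its level was 37740 per kb. The astrocyte gene *Gfap* stood at 13345 per kb. The synaptic gene *Snap25* stood at 8695 per kb. The lowest genes of the astrocyte and neuron lists, *Aldh1l1* and *Rbfox3*, had levels of 431 and 601 per kb. Of the motor neuron markers, the choline carrier gene *Slc5a7* was highest at 410 per kb, and *Chat*, the enzyme of acetylcholine synthesis, stood at 156 per kb. *Isl1* was the lowest of them at 11.5 per kb. Of the patterning genes of body position, the more anterior *Hoxa5* and *Hoxa4* had levels of 369 and 126 per kb. The posterior *Hoxc10*, *Hoxd10* and *Hoxa10*, used in lumbar segments, stood at 256, 83.6 and 72.0 per kb. Markers of adjoining or other tissues were also read. The muscle gene *Acta1* and the plasma protein gene *Apoa2* were the highest of their lists, at 164 and 402 per kb. The other muscle genes *Ckm* and *Myh1* stood at 36.9 and 14.03 per kb. The other liver genes *Ttr* and *Alb* stood at 31.8 and 19.97 per kb. Without length *Apoa2* was far below *Slc5a7*, with base means of 216 and 2316. *Neurod6*, a gene of forebrain neurons, had a base mean of 78.9. Its list is not among the 12 counted, and not every gene of it reached a base mean of 10. All 4 adult globin genes were listed at 0. The authors counted only uniquely mapped reads, and whether sequence shared between these genes lowered their values was not tested. These zeros therefore do not show that blood was absent. In bulk tissue, fewer cells of a type and less RNA per cell cannot be told apart.

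Glutathione is a small thiol peptide that donates electrons to peroxidases and is joined to reactive compounds by transferases. Thioredoxin serves the peroxiredoxins in a parallel chain, and both chains draw their electrons from NADPH. NRF2 switches on many of these genes under oxidative stress, while KEAP1 directs its breakdown, and in nervous tissue astrocytes are known as a main source of glutathione for neurons.

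Together the 50 members held 0.305% of the summed base means of all genes. Their median base mean was 800, against 514 over the 15918 genes that reached the same minimum. Of the members, 28 of 50 lay above that median. On the scale per kb, the members' median level was 227, against 117 over the 15627 such genes with a known length. Here 37 of 50 members lay above, which describes the list and was not tested. The levels were unevenly spread: the 10 members with the highest base means held 58.3% of the members' sum, and 22 members had a base mean of at least 1000. Ordered by level per kb, 13 of the 49 pairs of adjacent members lay within 2 counting errors of each other, such as *Prdx5* and *Gstm5* or *Cat* and *Gpx1*.

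**Figure D1:**
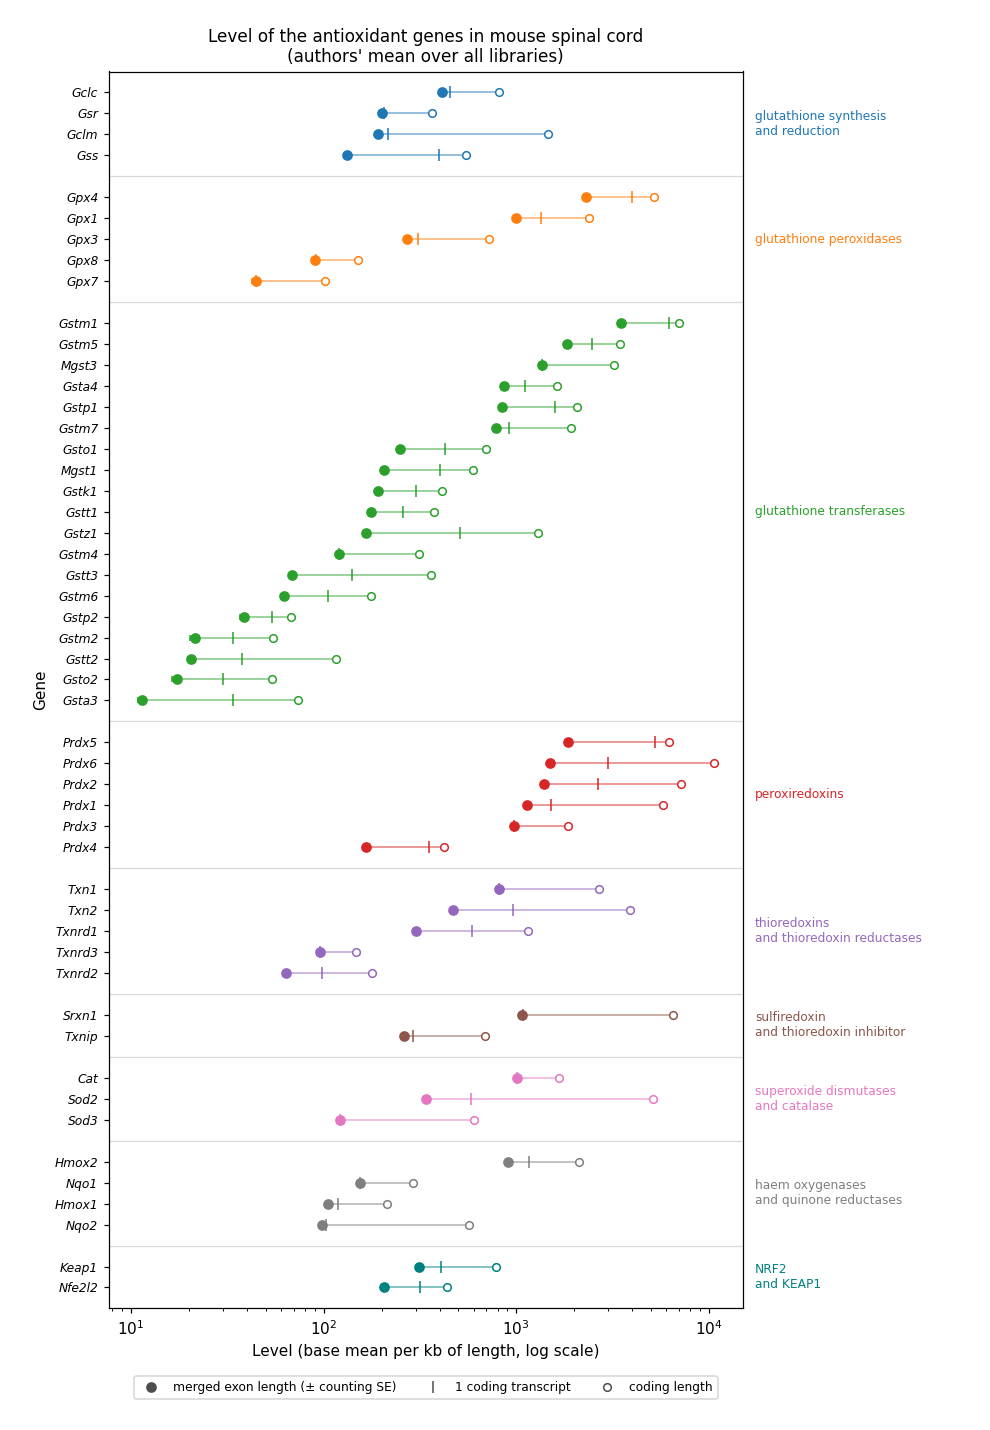
Level of each of the 50 members, as the authors' base mean per kb of length on a log axis, grouped by family; filled points use merged exons with bars for the counting error (mostly smaller than the point), ticks use 1 coding transcript per gene, and open points use the coding length. *Gstm1* at 3489 per kb and *Gpx4* at 2308 per kb stand highest on merged exons, and *Prdx6* moves to the highest place on coding length.

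Glutathione is made by glutamate-cysteine ligase and glutathione synthetase. *Gclc*, the catalytic subunit of the ligase and the rate-limiting step, had a level of 413 ± 3.32 per kb. *Gclm*, its modifier subunit, stood at 191 ± 1.74 per kb. On the coding length the order of these subunits turned, with a *Gclc* to *Gclm* ratio of levels of 0.559 in place of 2.17. *Gsr*, which returns oxidised glutathione to its reduced form, had a level of 200 ± 2.70 per kb. *Gss*, the synthetase, was the lowest of the family on merged exons at 132 per kb. On the other 3 scales *Gsr* was lowest, with a *Gss* to *Gsr* ratio between 1.42 and 1.93 in place of 0.66. On merged exons these 4 genes lay within 3.13 times of each other, the narrowest range of the families with more than 2 members.

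Glutathione peroxidases covered a far wider range, and 5 of 9 matching symbols reached the minimum. *Gpx4*, the enzyme that reduces lipid hydroperoxides within membranes, stood at 2308 ± 11.6 per kb and took 62.1% of the family's summed level per kb. *Gpx1*, the cytosolic enzyme, followed at 1003 ± 8.35 per kb. The secreted enzyme *Gpx3* stood at 271 ± 3.87 per kb. Both enzymes of the endoplasmic reticulum were low, *Gpx8* at 90.3 per kb and *Gpx7* at 44.3 per kb. *Gpx4* led this family on all 4 scales computed (merged exons, coding length, 1 coding transcript and no length).

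The family also divides by the amino acid at the active site. *Gpx1*, *Gpx3* and *Gpx4* contain selenocysteine, which is read from the codon TGA, elsewhere a stop, and these 3 genes held 96.4% of the family's summed level per kb. *Gpx7* and *Gpx8* have no selenocysteine in the annotation and held the remaining 3.62%. The 3 thioredoxin reductases contain selenocysteine as well, and the 6 selenocysteine members took 14.2% of the summed level per kb of all 50. The stretches around the codon are shown because they set the peroxidases and the reductases apart. They are coding bases of the GENCODE transcripts on GRCm38, with TGA in capitals and up to 12 coding bases on either side, all on the plus strand.
Gpx1: gtcgcgtctctcTGAggcaccacgatc
Gpx3: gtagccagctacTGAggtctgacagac
Gpx4: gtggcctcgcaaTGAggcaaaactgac
Txnrd1: cagtctggctgcTGAggt
Txnrd2: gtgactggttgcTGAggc
Txnrd3: cagaaaggctgcTGAggc
The codon lies at chr9:108339451-108339453 in *Gpx1*, chr11:54907256-54907258 in *Gpx3* and chr10:80054737-80054739 in *Gpx4*. In the reductases it lies at chr10:82896037-82896039 in *Txnrd1*, chr16:18477772-18477774 in *Txnrd2* and chr6:89674789-89674791 in *Txnrd3*. It is inside the coding sequence of the peroxidases, with 154 codons after it in *Gpx1*, 153 in *Gpx3* and 124 in *Gpx4*. In each reductase it is the last codon but 1 before the stop.

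The transferases, which join glutathione to lipid aldehydes and foreign compounds, were the largest family, with 19 members of 25 matching symbols. *Gstm1*, a mu-class enzyme, had the highest level of all members on merged exons at 3489 ± 15.4 per kb and took 33.2% of the family's summed level. It also led on 1 coding transcript, while *Prdx6* led on the coding length and without length. The related *Gstm5* followed at 1825 per kb. The 6 mu-class members together took 60.0% of the family. *Gstm7* stood at 787 per kb, whereas *Gstm4* (121 per kb), *Gstm6* (62.1 per kb) and *Gstm2* (21.4 per kb) were far lower. Among the other classes, *Mgst3*, a membrane-bound enzyme, had a level of 1363 ± 11.2 per kb. *Gsta4*, which conjugates the lipid peroxidation product hydroxynonenal, stood at 859 ± 8.25 per kb. *Gstp1*, of the pi class, was within 1 counting error of it at 848 ± 7.41 per kb. A second tier between 165 and 248 per kb held *Gsto1*, *Mgst1*, *Gstk1*, *Gstt1* and *Gstz1*. The last of these is an isomerase of tyrosine breakdown. *Gstt3*, *Gstp2*, *Gstt2* and *Gsto2* lay between 17.2 and 68.6 per kb. *Gsta3* had the lowest level of all members on merged exons at 11.3 ± 0.511 per kb, whereas *Gsto2* was lowest on the coding length and on 1 coding transcript, and *Gstm2* without length.

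Many transferases lie beside each other, and neighbours differed widely in level. All 7 mu-class genes that matched lie within 149 kb at chr3:107895821-108044894 (GRCm38). *Gstm3*, with a base mean of 1.24, lies between *Gstm6* and *Gstm2*, and *Gstm1* lies between *Gstm2* and *Gstm4*. On chromosome 19, *Gstp1* stood at 848 per kb and *Gstp2* beside it at 38.6 ± 1.86 per kb, and the adjacent *Gstp3* had 4 reads in all libraries together. The theta-class genes *Gstt3*, *Gstt1* and *Gstt2* share 63.3 kb of chromosome 10, and *Gstt4* among them had a base mean of 1.199.

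**Figure D2:**
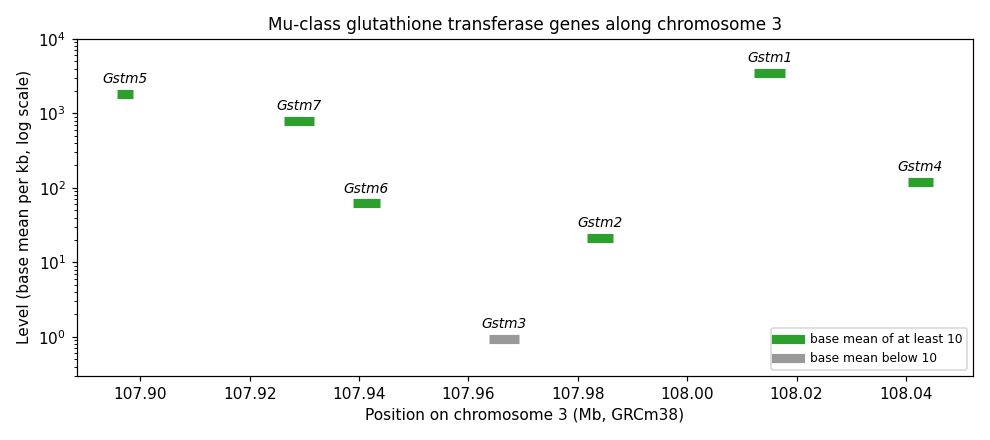
Mu-class transferase genes along chromosome 3 (GRCm38, x axis in Mb, bars drawn to scale from gene start to end) against their level as base mean per kb (y axis, log scale); green bars are members and the grey bar is *Gstm3*, below the minimum. *Gstm1* at 3489 per kb lies between *Gstm2* at 21.4 per kb and *Gstm4* at 121 per kb.

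Peroxiredoxins, which reduce hydrogen peroxide through a reactive cysteine, had the highest median level of the 9 families, at 1270 per kb. Their 6 members held 30.6% of the members' summed base mean, against 23.4% for the transferases. On the summed level per kb this order turned, with 24.6% for the peroxiredoxins and 36.9% for the transferases. Of the 6 peroxiredoxins, 5 lay between 973 and 1854 per kb. *Prdx5*, found in mitochondria, peroxisomes and cytosol, had the highest level of the family per kb of merged exons, at 1854 ± 9.32. *Prdx6*, which uses glutathione and also acts as a phospholipase, had the highest base mean of all members at 7155 ± 26.8 and a level of 1489 ± 5.58 per kb. Which of them led depended on the length used, since the *Prdx5* to *Prdx6* ratio of levels was 1.24 on merged exons and 0.583 on the coding length. The cytosolic pair *Prdx2* and *Prdx1* stood at 1402 ± 6.79 and 1138 ± 6.12 per kb. This order held on all 4 scales, with a ratio between 1.23 and 1.76. *Prdx3*, the mitochondrial enzyme, had a level of 973 ± 8.13 per kb. *Prdx4*, of the endoplasmic reticulum, was lowest at 165 ± 2.81 per kb.

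Oxidised peroxiredoxins are returned by thioredoxin, which is itself reduced by thioredoxin reductase. *Txn1*, the cytosolic thioredoxin, stood at 817 ± 8.83 per kb and the mitochondrial *Txn2* at 467 ± 3.33 per kb. The *Txn2* to *Txn1* ratio of levels was 0.571 on merged exons, 1.45 on the coding length and 1.17 on 1 coding transcript, so the order between them was not fixed. Among the reductases the order was stable for the first place. *Txnrd1*, the cytosolic enzyme, had a level of 300.0 ± 2.06 per kb, which was 4.69 ± 0.094 times that of the mitochondrial *Txnrd2* and 3.13 ± 0.064 times that of *Txnrd3*. On the other scales these ratios lay between 5.99 and 7.85. *Srxn1*, sulfiredoxin, which rescues peroxiredoxins that have been oxidised too far, stood at 1076 ± 6.18 per kb. *Txnip*, whose product binds and inhibits thioredoxin, had a level of 262 ± 2.90 per kb.

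Superoxide dismutases turn superoxide into hydrogen peroxide, and catalase breaks that down in peroxisomes. *Cat* had a level of 1006 ± 6.21 per kb. *Sod2*, the mitochondrial dismutase, stood at 341 ± 1.85 per kb of merged exons, which in this gene span 10008 bases, many of them outside the 669 coding bases. On base means without length the order turned, with 3414 ± 18.5 for *Sod2* and 2628 ± 16.2 for *Cat*, and it turned on the coding length too. *Sod3*, the extracellular dismutase, was lowest at 122 ± 1.81 per kb. The mouse *Sod1* gene, the cytosolic dismutase, had a base mean of 3849 and a level of 970 per kb. Whether reads of the human transgene entered its value was not tested.

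Haem oxygenases break down haem and quinone reductases detoxify quinones. *Hmox2*, the constitutive haem oxygenase, stood at 905 ± 6.40 per kb, which was 8.56 ± 0.21 times the level of the inducible *Hmox1* at 106 ± 2.46 per kb. The exons of *Hmox2* overlap those of *Cdip1* on the opposite strand over 40.2% of their length, and the strand setting of the counting is not given in the sources used here. *Nqo1*, a classical NRF2 target, had a level of 154 ± 3.15 per kb. *Nqo2* stood at 97.8 ± 1.56 per kb. Without length this order turned, with base means of 239 for *Nqo1* and 395 for *Nqo2*, as it did on the coding length.

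The regulators were both in the middle of the members' range. *Keap1*, the adaptor that marks NRF2 for breakdown, stood at 312 ± 2.58 per kb. *Nfe2l2*, which encodes NRF2, had a level of 206 ± 2.33 per kb. The *Keap1* to *Nfe2l2* ratio was 1.52 ± 0.021 on merged exons and lay between 1.28 and 1.87 on the other scales.

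NRF2 with small MAF proteins binds antioxidant response elements, whose core was searched as TGACNNNGC on both strands of the RefSeq promoters (GRCm38.p6, from 250 bases before to 50 after a gene's start). Of the 43 members with a promoter, 9 had a match (20.9%), against 16.7% of 12482 genes at or above the minimum and 14.0% of all genes. Counted by promoter, the share was 15.0% of 60 for the members and 12.4% of all 32851. The latter include genes below the minimum, and no share by promoter was computed for genes at or above it. A match is a description of these letters and no binding was measured. The 9 genes were *Gclm*, *Gsta3*, *Gstm5*, *Gstm7*, *Mgst1*, *Nfe2l2*, *Prdx1*, *Srxn1* and *Txnrd1*. The stretches of 4 of them, from different branches of the system, are printed on the plus strand with the match in capitals, here always in the reverse complement.
Gclm: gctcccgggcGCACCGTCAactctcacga
Prdx1: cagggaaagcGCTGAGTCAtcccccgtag
Srxn1: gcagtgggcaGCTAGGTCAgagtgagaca
Txnrd1: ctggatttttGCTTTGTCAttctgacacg
They lie at chr3:122245413-122245441 for *Gclm*, chr4:116685456-116685484 for *Prdx1*, chr2:152105542-152105570 for *Srxn1* and chr10:82859104-82859132 for *Txnrd1*. The match of *Prdx1* overlaps the AP-1 motif TGANTCA. That of *Txnrd1* lies before a transcript start inside the gene, which spans chr10:82833951-82897712 in GENCODE, and not at the gene's first base. Levels of the 9 genes with a match ranged from 11.3 per kb for *Gsta3* to 1825 per kb for *Gstm5*.

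The authors counted uniquely mapped reads, so sequence shared with other genes can lower a value. For 42 of 50 members, no 100-base window of the chosen transcript occurred in a transcript of a gene elsewhere in the genome. *Gstp2* shared 63.5% of its windows and *Gstp1* 52.8%, mainly with each other. *Gpx4* shared 48.4% with processed copies such as *Gpx4-ps2*. Shares were 9.05% for *Gstm1*, 4.03% for *Prdx2* and 2.41% for *Gstm6*, and under 1% for *Prdx1* and *Gstm2*. The levels of *Gstp1*, *Gstp2* and *Gpx4* are therefore uncertain. Other overlaps on the opposite strand covered 19.4% of the exons of *Txnip* (with *Gm15441*), 19.1% of *Prdx5* (with *Trmt112*), 18.9% of *Nqo2* (with *Serpinb6a*) and 13.9% of *Gstm5* (with *4933431E20Rik*). For *Keap1* such an overlap covered 10.9% (with *Gm16754*). Each single overlap of *Gstz1*, *Gss*, *Prdx2*, *Gclm* and *Txnrd2* covered less, but *Gstz1*, *Gss* and *Prdx2* have more than 1, which were not added up. On the same strand, which stranded counting cannot separate, *Gm20441* overlapped 13.6% of the exons of *Gstt3* and *Gm6061* overlapped 3.88% of those of *Gclm*. Their part in the levels was not tested.

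The genes that feed these systems were read from lists chosen with the members. All 8 genes of NADPH supply had a base mean of at least 10. *Taldo1* and *Tkt*, of the pentose phosphate pathway, led at 1241 and 697 per kb, and without length *Tkt* was the higher of them. *Me1*, malic enzyme, stood at 634 per kb, *G6pdx*, the entry enzyme of that pathway, at 516 per kb and *Idh1* at 449 per kb. All 10 genes of glutathione precursors and turnover also reached 10. *Ggt7* (957 per kb) and *Slc3a2* (839 per kb) led this list, followed by the glutamate and cysteine carrier *Slc1a1* at 268 per kb, *Oplah* at 152 per kb and *Chac1* at 131 per kb. *Slc7a11*, the cystine carrier that pairs with *Slc3a2*, stood at 38.5 per kb, with a base mean of 536 against 2959 for *Slc3a2*.

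Of 12 genes of glutaredoxins and thiol repair, 11 reached a base mean of 10. *Hagh*, a glyoxalase, led at 712 per kb, followed by the methionine sulfoxide reductases *Msrb1* at 475 and *Msrb2* at 341 per kb, *Glrx5* at 242 per kb and *Sesn1* at 237 per kb. Without length the glyoxalase gene *Glo1* led this list, with a base mean of 2583 against 1359 for *Hagh*. *Glrx3*, a gene used by most cells, had a base mean of 1.86, so a value near 0 in these data need not mean that a gene was silent. All 8 genes listed around NRF2 were above the minimum. *Sqstm1*, whose product p62 sequesters KEAP1, stood at 3010 per kb. The ligase subunits *Cul3* and *Rbx1* had levels of 646 and 460 per kb. *Mafg* and *Bach1*, which encode DNA-binding proteins, stood at 148 and 97.5 per kb.

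All 17 other genes of selenoproteins and selenium handling reached the minimum. *Selenow* and *Selenop*, the latter a selenium carrier, stood at 5724 and 5371 per kb, above every antioxidant member on merged exons, and without length *Selenop* was the higher of them. *Selenot*, *Selenom* and *Selenok* followed at 1464, 1260 and 973 per kb.

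Matching symbols below the minimum numbered 11, so the list ends in a gap. Just inside it lay *Gstm2*, with a base mean of 36.0, and just outside *Mgst2*, with 5.50. *Gpx2*, *Gpx2-ps1*, *Gsta2*, *Gstm3* and *Gstt4* had base means between 1.199 and 2.84. *Gpx6* and *Gstp3* stood at 0.541 and 0.396. *Gsta1* was seen in 3 reads, and *Prdx6b* and *Gpx5* in 1 read each over all libraries.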

How the data were processed

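RNA of 10 spinal cords (5 WT, 5 *SOD1 G93A*, grouped by the sample labels) was sequenced from stranded mRNA libraries. The authors trimmed reads with Fastp, aligned them to mm10 with HISAT2 (2.1.0), assigned reads that mapped to 1 place to genes by featureCounts (2.0.2) and compared the genotypes with DESeq2. The annotation and strand setting are not given in the sources used here. The deposited base mean is a signal that the authors made by dividing counts by size factors and averaging over all libraries. The remaining columns hold the authors' comparison (log2 fold change, its error, Wald statistic, p-value and adjusted p-value) and were not used, so no test was made.

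With Python 3.11.15 and pandas 2.3.3, members were selected by symbol and a base mean of at least 10. Base means were divided by merged exon lengths of GENCODE M21 (GRCm38), which covered 96.6% of listed genes and all 61 matching symbols. Coding length, no length and 1 coding transcript per gene were alternatives. Size factors were recovered from 716 genes at values of 1 read, after the method was tested on simulated data. All members could be named; values were given for the highest and lowest of each family, those near the minimum, the regulators, *Sod1* and the highest 5 genes of each context list. Values for other members and for *Slc7a11*, *Glo1*, *Glrx3*, *Ckm*, *Myh1*, *Ttr* and *Alb* were added after they were seen. The base means of *Apoa2* and *Slc5a7* were added in the same way. Members and lists were chosen with earlier results of these data known. Some marker genes are not reported here, and the 2 lists that hold them were left out of the count of marker lists.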

Additional observations from a re-analysis of the deposited data

How the results depend on the processing

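No paired analysis was possible because the deposited mean pools all libraries, and for the same reason no library could be left out. Of 31 alternative values, 26 lay within 1.5 times of the main one. With a minimum base mean of 1, the median base mean of the members was 526 in place of 800, because 6 low genes joined. On the coding length, the share of *Gclc* in its family was 25.5% in place of 44.1%, and that of *Cat* was 22.5% in place of 68.5%. Without length, the share of *Cat* was 40.4%, and that of *Txn1* was 15.6% in place of 46.8%. The length used as divisor is all that differs between these values. Matching synonyms as well gave 51 members, with *Cyb5r1* added. The highest member was the same as on merged exons in 5 of 9 families on the coding length, in 6 of 9 without length and in 8 of 9 on 1 coding transcript per gene, an alternative chosen after seeing the data. Counting error limits the lowest members most, and the spread between mice is not known from a pooled mean.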
